A study of Mus musculus with 6 samples.

Results

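Frizzled proteins are cell surface receptors for Wnt, a family of lipid-modified secreted signals, and Lrp5 and Lrp6 are the co-receptors that bind the same ligand beside them. The genes described here are the 8 Frizzled genes Fzd1 to Fzd8 together with Lrp5 and Lrp6, 10 genes of the 18193 named on the array. They were chosen by name: every probe set (a group of short probes for a transcript) annotated to 1 of these symbols was taken, which gave 26 of 45037 probe sets, and none of the 26 carried a further symbol. Of these, 22 probe sets passed the filter on low signal and were tested, and all 10 genes kept at least 1. The 4 that did not pass were 1420087_at and 1438101_at of Fzd3, 1449416_at of Fzd4 and 1445815_at of Fzd8.

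All arrays came from cultured fibroblasts of mouse embryos (MEFs) that had been immortalized and that lacked PCAF (Kat2b). There were 3 PCAF-/-;GCN5-/- arrays and 3 PCAF-/-;GCN5+/- arrays, where GCN5 (Kat2a) is a histone acetyltransferase related to PCAF. The conditional GCN5 allele was described as removed by a retrovirus that carries Cre, against the empty vector, and cells were selected in puromycin. No array label names the virus, so the groups follow the genotype labels, and effects of virus and genotype cannot be told apart. Each genotype had a duplicate pair of RNAs, A1 and A2, from line A, and 1 RNA, B, from the separately immortalized line B. Only 2 lines therefore stand behind each p-value, and the spread is partly that of duplicate RNAs.

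When a Wnt ligand joins a Frizzled to Lrp5 or Lrp6, the tail of the co-receptor is phosphorylated and draws Axin to the membrane, so that beta-catenin is no longer degraded and activates genes with TCF and LEF factors. Frizzleds also signal without the co-receptors, to the cytoskeleton and to planar cell polarity. Fibroblasts of the embryo carry several of these receptors at once. By sequence, Fzd1, Fzd2 and Fzd7 form a closely related group, as do Fzd5 with Fzd8 and Fzd3 with Fzd6.

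In GCN5-/- arrays, Fzd1 fell more than 2-fold at both of its probe sets, and Fzd2 fell by between 0.53 and 0.58 log2 units at all 3. Fzd4 fell at 1 of its 2 tested probe sets and Fzd7 at 1 of 2. Fzd3, Fzd5, Fzd6, Fzd8, Lrp5 and Lrp6 had no called probe set. Fzd6, Fzd3, Fzd7 and Lrp5 differed between the 2 cell lines, and Fzd7 was the 1 gene called in both comparisons.

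The labels were checked on the targeted gene. Kat2a probe set 1422972_s_at had log2 signals of 7.97, 7.85 and 7.75 in GCN5-/- arrays A1, A2 and B, against 9.31, 10.07 and 11.51 in GCN5+/- arrays. Its estimate was -2.44 ± 0.37 (SE; limma adjusted p = 0.00864). A second, 1422971_at, changed by -0.74 ± 0.13 (limma adjusted p = 0.0157), and the estimate at the third, 1426783_at, was 0.18 ± 0.16 (not called, limma adjusted p = 0.575). The third ran in opposite directions, with a difference of 0.47 ± 0.09 in line A and -0.41 in the single pair of line B. The positions of the 3 probe sets with respect to the deletion were not analysed here. All 3 Kat2b probe sets were below the filter, with estimates between -0.00 and 0.19. All 12 fibroblast markers passed the filter, against 3 of 7 epithelial, 1 of 7 endothelial, 4 of 7 leukocyte, 4 of 7 neural and 1 of 6 skeletal muscle markers. Each gene was read at its brightest probe set, where 12626 of all 18193 named genes passed. Passing could rest on 1 line, as for the fibroblast marker Thy1, with means of 9.07 in line B and 6.12 in line A. The epithelial marker Krt19 averaged 10.96 in line B and 8.10 in line A. Of the fibroblast markers 5 fell in GCN5-/- arrays, namely Col1a1, Pdgfrb, Dcn, Col3a1 and Pdgfra, and 1 leukocyte marker, Cd53, rose. Over the 12626 genes that passed, 4.77% were called lower and 5.09% higher. The mean log2 signal of the fibroblast markers lay between 12.3 and 12.5 in GCN5-/- arrays and between 12.5 and 12.7 in GCN5+/- arrays. That of the 4 leukocyte markers lay between 8.18 and 8.67 in GCN5-/- arrays and between 7.85 and 8.24 in GCN5+/- arrays, and the part of either list in the results below was not tested. In bulk RNA, fewer cells of a type and less RNA per cell cannot be told apart.

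Promoter windows were available for 4 of the 10 members, from RefSeq in the GRCm38.p6 build, each with 250 bases before the annotated start and 50 from it on. All 4 are shown because they were available, and none was chosen by its genotype call. Of these genes, Fzd1, Fzd4 and Fzd7 each had at least 1 probe set called lower in GCN5-/- arrays, while Fzd5 had no call. Fzd4 and Fzd7 were each called at 1 of 2 tested probe sets. Fzd2, called at all 3 of its probe sets, had no window. The windows are chr5:4758167-4758466 on the minus strand for Fzd1, chr7:89404116-89404415 on the plus strand for Fzd4, chr1:59481897-59482196 on the plus strand for Fzd7 and chr1:64737701-64738000 on the minus strand for Fzd5. Each runs 5′ to 3′ along its gene. Capitals mark matches on either strand to CTTTGA, 1 form of the core of the TCF and LEF motif, and to GGGCGG, the GC box. Read on the other strand these are TCAAAG and CCGCCC, and neighbouring matches were allowed to overlap.
Fzd1: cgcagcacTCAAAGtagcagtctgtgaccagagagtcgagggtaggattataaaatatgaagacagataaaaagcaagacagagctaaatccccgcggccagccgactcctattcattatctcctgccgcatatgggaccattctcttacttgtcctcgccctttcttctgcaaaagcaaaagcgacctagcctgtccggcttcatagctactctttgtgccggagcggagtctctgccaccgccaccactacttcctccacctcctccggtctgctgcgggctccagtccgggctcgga
Fzd4: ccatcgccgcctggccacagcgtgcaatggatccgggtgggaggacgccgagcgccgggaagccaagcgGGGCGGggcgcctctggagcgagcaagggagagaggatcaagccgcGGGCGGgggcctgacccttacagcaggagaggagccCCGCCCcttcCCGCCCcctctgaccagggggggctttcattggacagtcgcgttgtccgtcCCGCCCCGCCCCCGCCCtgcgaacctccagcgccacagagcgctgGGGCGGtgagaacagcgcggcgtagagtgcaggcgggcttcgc
Fzd7: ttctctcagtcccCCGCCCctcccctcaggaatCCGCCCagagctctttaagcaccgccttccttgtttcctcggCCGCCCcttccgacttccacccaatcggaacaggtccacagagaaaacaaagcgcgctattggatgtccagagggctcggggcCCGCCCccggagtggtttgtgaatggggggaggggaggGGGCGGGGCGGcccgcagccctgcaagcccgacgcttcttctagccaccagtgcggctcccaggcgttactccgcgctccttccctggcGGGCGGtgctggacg
Fzd5: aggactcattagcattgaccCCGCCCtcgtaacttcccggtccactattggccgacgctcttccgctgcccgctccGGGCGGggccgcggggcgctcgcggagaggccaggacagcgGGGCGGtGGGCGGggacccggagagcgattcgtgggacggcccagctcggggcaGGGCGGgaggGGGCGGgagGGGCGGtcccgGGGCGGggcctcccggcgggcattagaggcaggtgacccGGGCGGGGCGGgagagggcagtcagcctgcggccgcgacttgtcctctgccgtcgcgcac

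Fzd1 held 1 match to CTTTGA, from base -242 to -237 on the other strand, and no GC box. Fzd4 held 8 GC boxes, Fzd7 held 7 and Fzd5 held 10, and none of these 3 windows held CTTTGA. Other forms of the TCF and LEF core were not searched, so their absence from a window is not shown. The E-box CACGTG was in none of the 4. Over 27025 genes with a window of the same length, CTTTGA was found in 16.2%, the E-box in 7.24% and the GC box in 35.9%. The windows had 16 CpG dinucleotides in Fzd1, 32 in Fzd4, 24 in Fzd7 and 38 in Fzd5, against a median of 7 over all windows. The windows of the 3 genes with a call thus had no searched motif in common that the Fzd5 window lacked. A match is a string of letters, not a bound site.

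GCN5-/- arrays were first set against GCN5+/- arrays, with line as a covariate. A probe set was called where its limma p, adjusted over all 27022 tested probe sets, was under 0.05. Of the 22 tested member probe sets, 7 fell and 0 rose (limma; at an unadjusted p under 0.05, 10 were lower and 0 higher). Over all tested probe sets, 4.31% were called lower and 4.20% higher at the adjusted threshold, and the shares at the unadjusted threshold were not computed. Without GCN5-/- array A2 the count was 2, both of Fzd1, without GCN5-/- array A1 it was 4, of Fzd1 and Fzd2, and with no term for line it was 0. The 7 belonged to 4 genes, and probe sets of a gene share a transcript, so they are not separate observations. The log2 change was negative at 16 of the 22 and positive at 6, with a median of -0.22, against a median of -0.01 over all tested probe sets. All GCN5-/- arrays lay below all GCN5+/- arrays at 6 of the 22, which held for 8.79% of all tested probe sets.

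**Figure D1:**
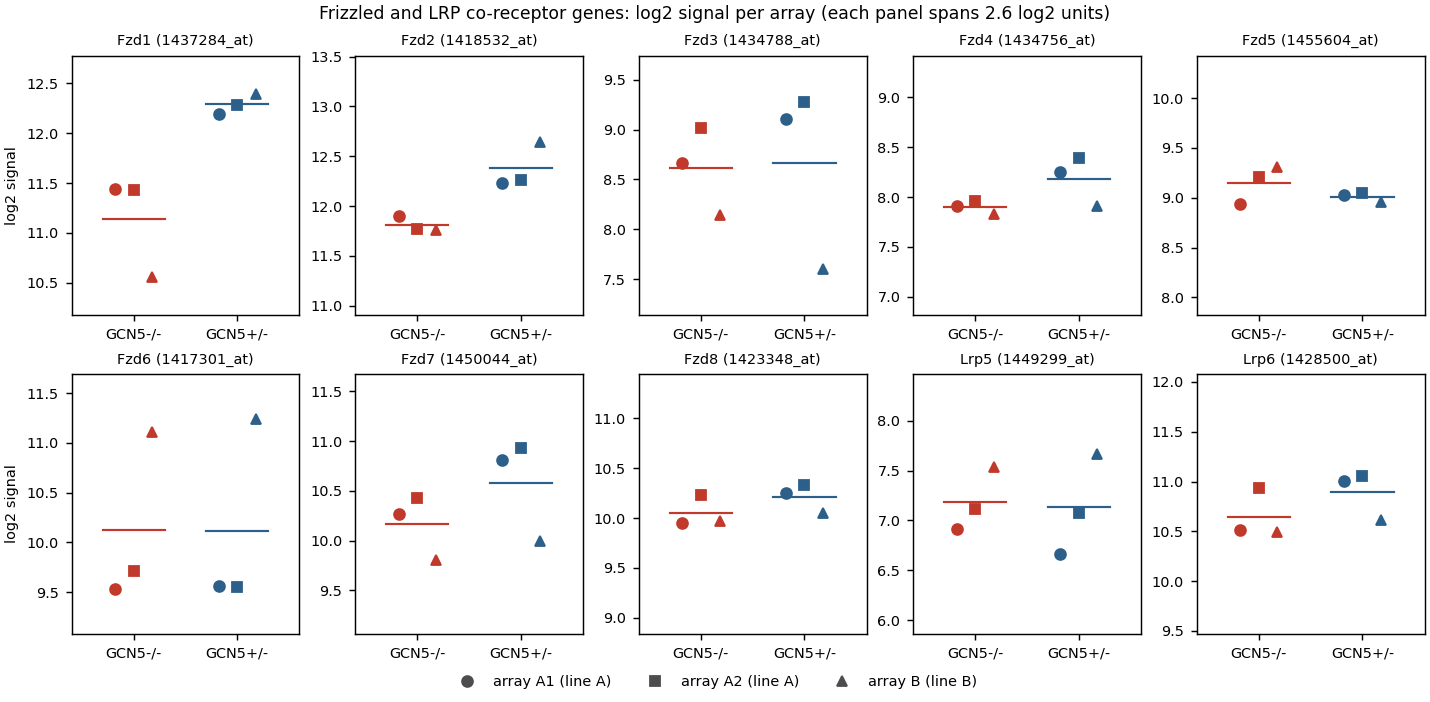
Log2 signal of each member gene at its brightest probe set, with GCN5-/- arrays (red) left of GCN5+/- arrays (blue). Circles and squares are the duplicate RNAs A1 and A2 of line A, triangles are line B, and bars are means of 3 arrays. Fzd1 and Fzd2 separate by genotype, whereas Fzd6 and Lrp5 separate by line, with both triangles on top. Fzd3 and Fzd7 also separate by line, with both triangles at the bottom. The Fzd4 probe set drawn, 1434756_at, was not called for genotype, and the called 1419301_at is not drawn.

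Fzd1, a Wnt receptor that can act through beta-catenin, had the largest fall among the members. Its probe set 1437284_at read 11.44, 11.43 and 10.56 log2 units in GCN5-/- arrays A1, A2 and B, against 12.20, 12.29 and 12.39 in GCN5+/- arrays. The genotypes did not overlap, and GCN5-/- array B was the lowest of the 6. The log2 change was -1.15 ± 0.18 (SE; limma adjusted p = 0.00965), a signal 2.22-fold lower. Probe set 1422985_at, designed on a different source sequence, read 9.37, 9.59 and 8.64 in GCN5-/- arrays, against 10.10, 10.39 and 10.28 in GCN5+/- arrays. Its log2 change was -1.05 ± 0.18 (limma adjusted p = 0.0142), with GCN5-/- array B again lowest, and that call ended with cell line as a random block (adjusted p = 0.0568).

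Fzd2, the close relative of Fzd1 that is known to signal with Wnt5a and Ror receptors, fell at all 3 probe sets by similar amounts. These 3 probe sets were designed on the same source sequence. Probe set 1418533_s_at read 11.10, 11.02 and 11.02 in GCN5-/- arrays A1, A2 and B, against 11.50, 11.52 and 11.85 in GCN5+/- arrays. The 3 GCN5-/- arrays were close to each other and lay below every GCN5+/- array, of which B was the highest. The log2 change was -0.58 ± 0.09 (SE; limma adjusted p = 0.0108), or 1.49-fold lower. The others changed by -0.57 ± 0.10 at 1418532_at and by -0.53 ± 0.10 at 1418534_at, with adjusted p of 0.0140 and 0.0173, and their genotypes did not overlap either. With the line A duplicates averaged no Fzd2 probe set was called (adjusted p between 0.0572 and 0.0721), nor was any without GCN5-/- array A2 (adjusted p between 0.0503 and 0.0623). With cell line as a random block 1418533_s_at alone was called, and the others had an adjusted p of 0.0513 each. Over 14 refits 1418532_at kept its call in 10, 1418533_s_at in 11 and 1418534_at in 7.

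Fzd7, the third of that group and a receptor studied in stem cells, was called at 1450044_at and not at 1450043_at, although both were designed on the same source sequence. Signals at 1450044_at were 10.27, 10.43 and 9.81 in GCN5-/- arrays A1, A2 and B, against 10.81, 10.93 and 10.00 in GCN5+/- arrays. The genotypes overlapped, because GCN5+/- array B lay below both line A arrays of GCN5-/- cells. The log2 change was -0.41 ± 0.10 (SE; limma adjusted p = 0.0483). It was no longer called with no filter on low signal (adjusted p = 0.0625), without the variance trend (adjusted p = 0.0629) or when any 1 line A array was left out. At 1450043_at the change was -0.12 ± 0.10 (limma adjusted p = 0.536).

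Fzd4, which besides Wnt binds the ligand Norrin in retinal vessels, had 1 of 2 tested probe sets called. At 1419301_at the signals were 7.18, 7.43 and 7.01 in GCN5-/- arrays A1, A2 and B, against 7.89, 8.19 and 7.55 in GCN5+/- arrays. The genotypes did not overlap, and in each the line B array was the lowest. The log2 change was -0.67 ± 0.12 (SE; limma adjusted p = 0.0168), or 1.59-fold lower. The call ended with cell line as a random block (adjusted p = 0.0666) and without GCN5-/- array A1 (adjusted p = 0.0564) or A2 (adjusted p = 0.0552). The estimate at 1434756_at was -0.29 ± 0.11, not called (limma adjusted p = 0.147). The third, 1449416_at, lay between 4.83 and 5.10 on all 6 arrays, below the filter, with a change of -0.13 ± 0.08.

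Fzd5 and Fzd8, a related pair that can act through beta-catenin, had no called probe set. Fzd8 probe set 1423348_at read 9.95, 10.24 and 9.97 in GCN5-/- arrays A1, A2 and B, against 10.25, 10.33 and 10.05 in GCN5+/- arrays, and the genotypes overlapped. Its log2 change was -0.16 ± 0.10 (SE; limma adjusted p = 0.394), and the estimate at 1445815_at, below the filter, was -0.12 ± 0.21. Fzd5 probe set 1455604_at read 8.93, 9.21 and 9.31 in GCN5-/- arrays, against 9.03, 9.05 and 8.96 in GCN5+/- arrays. Its change was 0.14 ± 0.12 (limma adjusted p = 0.538), and that of 1422937_at was 0.09 ± 0.10.

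Fzd3 and Fzd6, which guide planar cell polarity in mice, were not called for genotype either. Estimates at the 4 tested Fzd3 probe sets lay between -0.35 and -0.05. The nearest to the threshold, 1450135_at, read 7.99, 7.89 and 7.13 in GCN5-/- arrays A1, A2 and B, against 8.25, 8.66 and 7.14 in GCN5+/- arrays, which amounts to -0.35 ± 0.15 (SE; limma adjusted p = 0.194). Its line A arrays were lower in GCN5-/- cells while the line B arrays were nearly level. Estimates at the 3 Fzd6 probe sets lay between 0.00 and 0.11, and the adjusted p was at least 0.590 at each. For 1417301_at the estimate was 0.00 ± 0.10.

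The co-receptors were not called. Lrp6, the co-receptor that embryos need for most beta-catenin signalling, read 8.71, 8.52 and 8.54 at 1451022_at in GCN5-/- arrays A1, A2 and B, against 9.25, 9.05 and 8.55 in GCN5+/- arrays. Both line A arrays were lower in GCN5-/- cells and the line B arrays were level. The log2 change was -0.36 ± 0.14 (SE; limma adjusted p = 0.151), and -0.24 ± 0.12 at 1428500_at (limma adjusted p = 0.258). Lrp5, known for its part in bone mass, had 1 probe set, 1449299_at, which read 6.91, 7.12 and 7.54 in GCN5-/- arrays, against 6.66, 7.08 and 7.67 in GCN5+/- arrays. Its change was 0.05 ± 0.14 (limma adjusted p = 0.865).

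**Figure D2:**
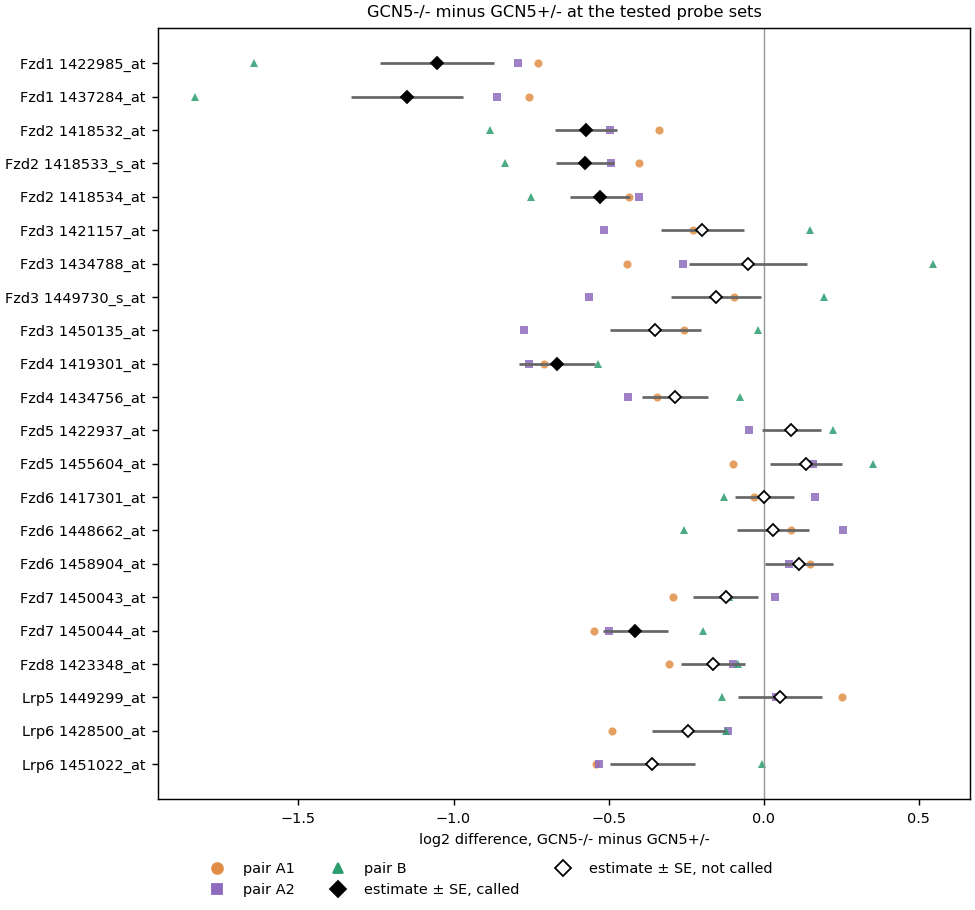
Log2 difference, GCN5-/- minus GCN5+/-, at the 22 tested probe sets. Diamonds are the limma estimate over 6 arrays with its SE, filled where called, and coloured points are the single differences in pairs A1, A2 and B. At Fzd1 and Fzd2 the line B pair (triangles) lies farthest left, and at Fzd3 it lies right of both line A pairs.

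The size of the genotype difference was then compared between the lines with a product term. In line B, Fzd1 at 1437284_at differed by -1.83, and in line A by -0.81 ± 0.08 (SE), with pairs A1 and A2 at -0.76 and -0.86. The difference of these differences was -1.02 ± 0.13 (limma unadjusted p = 6.8e-05, adjusted p = 0.0706). Refits without 1 of the 4 line A arrays gave adjusted p between 0.0182 and 0.0485, but their spread comes from a single duplicate pair, so they add no support. The other Fzd1 probe set gave -0.88 ± 0.25 (adjusted p = 0.380). At Fzd2 the line B difference was between -0.88 and -0.75 and the line A difference between -0.45 and -0.42, with adjusted p for the product term of at least 0.353. Fzd4 and Fzd7 ran the other way: 1450044_at of Fzd7 differed by -0.19 in line B and by -0.52 in line A (adjusted p = 0.818). No member probe set was called (0 of 22 by limma; 5 had an unadjusted p under 0.05, as did 7.66% of all tested probe sets), and 0.0481% of all tested probe sets were. The spread for this test comes from the line A duplicates alone (2 residual degrees of freedom).

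Lines were compared next, as line B minus line A with genotype as a covariate. The share of all tested probe sets without overlap between the lines was not computed. Statements below that the lines did not overlap therefore only describe the arrays. Of the 22 tested probe sets 3 were higher and 5 were lower in line B, from 4 genes, while 23.1% of all tested probe sets were called in either direction. Fzd6 was 3.00-fold higher in line B at 1417301_at and 2.79-fold higher at 1448662_at. Fzd3 was lower in line B at all 4 tested probe sets. Fzd7 was lower at 1 and Lrp5 was higher at its only probe set.

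Fzd6 at 1417301_at read 11.11 and 11.24 in the GCN5-/- and GCN5+/- arrays of line B, against 9.53, 9.72, 9.56 and 9.55 in the line A arrays (GCN5-/- A1 and A2, then GCN5+/- A1 and A2). The lines did not overlap, and the genotypes were close to each other within each line. The log2 difference was 1.59 ± 0.10 (SE; limma adjusted p = 3.1e-05). Probe set 1448662_at, from the same source sequence, differed by 1.48 ± 0.12 (limma adjusted p = 0.000125). Signals at 1458904_at were 7.77 and 7.66 in line B against 7.37 to 7.71 in line A and was not called, with 0.19 ± 0.12 (limma adjusted p = 0.288). The probe sets of Fzd6 thus disagreed, with the call resting on 1 source sequence.

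Fzd3 at 1434788_at read 8.14 and 7.60 in the GCN5-/- and GCN5+/- arrays of line B, against 8.67, 9.02, 9.11 and 9.28 in line A. Line B lay below line A at each of the 4 tested probe sets, with no overlap. The log2 difference was -1.15 ± 0.20 (SE; limma adjusted p = 0.00508) at 1434788_at, and -1.06 ± 0.16 (limma adjusted p = 0.00227) at 1450135_at. It was smaller at 1421157_at and 1449730_s_at, with -0.66 ± 0.14 and -0.63 ± 0.15. Within GCN5-/- arrays the difference at 1434788_at was -0.70, and within GCN5+/- arrays it was -1.60. Leaving out the GCN5+/- line B array ended the call at 1434788_at (adjusted p = 0.0575), 1421157_at (adjusted p = 0.204) and 1449730_s_at (adjusted p = 0.301), and 1450135_at stayed called. The Fzd3 probe sets under the filter, 1420087_at and 1438101_at, differed by -0.08 ± 0.11 and -0.11 ± 0.09.

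Lrp5 at 1449299_at read 7.54 and 7.67 in line B, against 6.91, 7.12, 6.66 and 7.08 in line A, with no overlap. The log2 difference was 0.66 ± 0.14 (SE; limma adjusted p = 0.0130), and 0.52 without the GCN5+/- line B array (adjusted p = 0.168). Lrp6 ran the other way without a call, at -0.32 ± 0.13 and -0.34 ± 0.14. Fzd7 at 1450044_at read 9.81 and 10.00 in line B, against 10.27, 10.43, 10.81 and 10.93 in line A. The log2 difference was -0.71 ± 0.11 (limma adjusted p = 0.00298), while 1450043_at differed by 0.02 ± 0.11. Fzd4 at 1419301_at differed by -0.39 ± 0.13 (limma adjusted p = 0.0628, and adjusted p = 0.0208 with the replicate block). Fzd1, Fzd2, Fzd5 and Fzd8 were not called between lines.

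The line difference of Fzd1 was also read within each genotype. Within GCN5-/- arrays, line B minus line A was -0.87 at 1437284_at, and within GCN5+/- arrays it was 0.15. In order of level, the 3 GCN5+/- arrays stood highest and close together, the line A arrays of GCN5-/- cells came next and the line B array of GCN5-/- cells was lowest. For Fzd2 at 1418532_at the highest array was GCN5+/- B, at 12.65, and the 3 GCN5-/- arrays lay between 11.76 and 11.90.

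**Figure D3:**
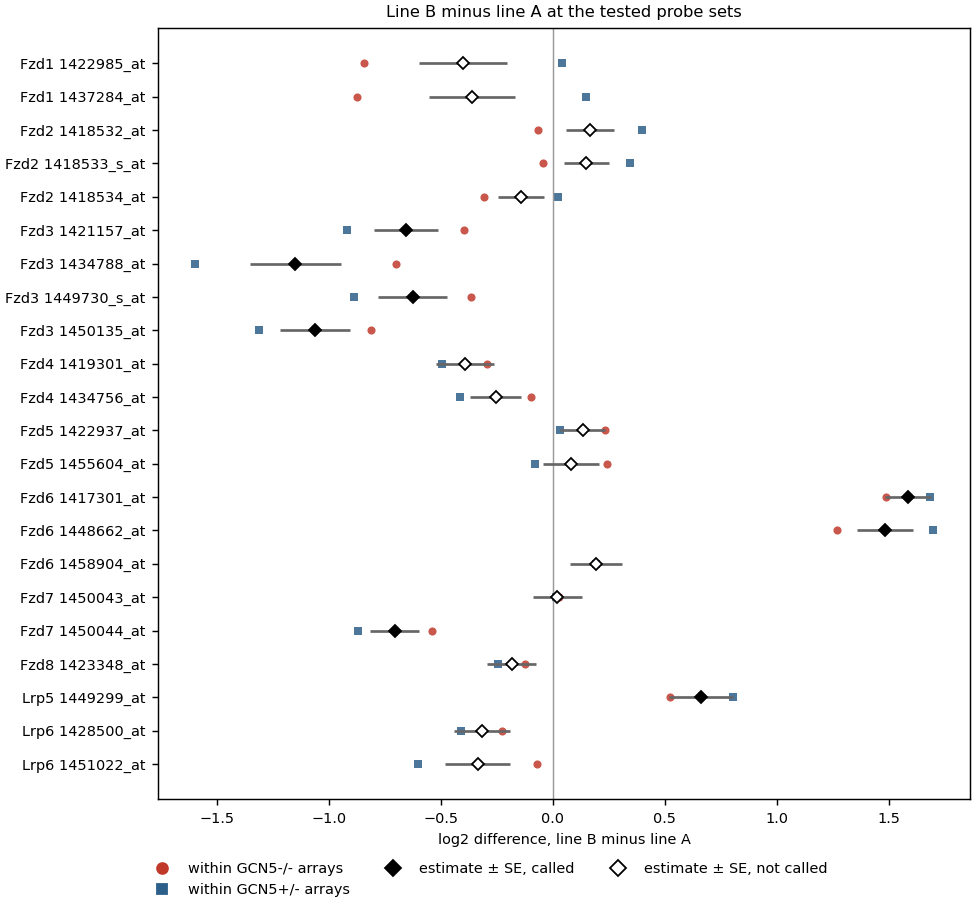
Log2 difference, line B minus line A, at the 22 tested probe sets. Diamonds are the limma estimate with its SE, filled where called, red circles are the difference within GCN5-/- arrays and blue squares within GCN5+/- arrays. Fzd6 at 1417301_at and 1448662_at and Lrp5 lie right of 0 in both genotypes, and Fzd3 lies left of 0 in both.

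Genes with the most similar pattern over the 6 arrays were looked up for 2 members. For Fzd1 (1437284_at), Pearson's r was 0.982 with Rpl41, a ribosomal protein gene, 0.960 with Pltp, a phospholipid transfer protein gene, and 0.957 with Gas1, a growth arrest gene that encodes a Hedgehog-binding surface protein. These led 3118 probe sets of comparable spread. For Fzd6 (1417301_at), r was 0.999 with Nes (nestin, an intermediate filament), 0.999 with Sema5a (a semaphorin) and 0.998 with Msln (mesothelin). With 6 arrays of 2 lines, any gene that differs mainly between the lines comes close to Fzd6 in this measure.

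Other genes of the Wnt pathway were counted for genotype, with each gene taken at its brightest probe set. Over all 12626 genes tested in that way, 4.77% were called lower and 5.09% higher, with a median log2 change of 0.01. Among other Wnt receptors, polarity proteins and binding partners, 5 of 15 tested fell and 0 rose, with a median log2 change of -0.22. Adgra2, a partner of Reck in Wnt7 signalling, fell by 0.67 ± 0.09 (SE; limma adjusted p = 0.00499). Ror1, a receptor tyrosine kinase for Wnt5a, fell by 1.22 ± 0.16. Ryk, a further Wnt receptor, fell by 0.34 ± 0.06, and Lrp4, of the LDL receptor family, by 0.51 ± 0.10. The remaining Frizzleds, Fzd9 and Fzd10, had estimates of 0.09 and -0.03, with limma adjusted p of 0.688 and 0.880. In the LDL receptor family, to which Lrp5 and Lrp6 belong, 2 of 10 fell and 0 rose, Lrp4 and Vldlr (-0.46 ± 0.10), with a median of -0.08.

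On the ligand side, 0 of 14 Wnt ligand and ligand secretion genes were called by limma (3 lower and 0 higher at an unadjusted p under 0.05). The share of all genes at that unadjusted threshold was not computed. Secreted modulators of Wnt, most of which bind Wnt, Lrp6 or Lgr receptors, had 4 of 9 lower and 0 higher, with a median of -0.60. They included the R-spondin genes Rspo2 (-0.89 ± 0.09, SE) and Rspo3 (-1.14 ± 0.25), whose proteins keep Frizzleds on the surface. The others were Sfrp2 (-1.09 ± 0.19) and Sfrp4 (-0.72 ± 0.14), secreted proteins with a Frizzled-like domain. In line A the 4 differed by -0.89, -1.52, -0.84 and -0.93, in that order. In the single pair of line B they differed by -0.88, -0.39, -1.58 and -0.29. Rspo3 read 5.76 and 6.15 in the GCN5-/- and GCN5+/- arrays of line B, under the filter level of 6.796. The product term was called at none of the 4. Regulators of receptors at the surface had 1 lower of 9 and 0 higher, Dab2, an endocytic adaptor, at -0.35 ± 0.07, with a median of 0.17.

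Downstream, 4 of 28 intracellular transducers fell and 0 rose, with a median of -0.11. Daam2, a formin of the Dishevelled pathway, fell by 1.03 ± 0.13 (SE; limma adjusted p = 0.00371). Gsk3b, the kinase that marks beta-catenin for degradation, fell by 0.38 ± 0.08, Dvl2, a Dishevelled adaptor that binds Frizzleds, by 0.47 ± 0.10, and the TCF factor Tcf7l1 by 0.35 ± 0.09. Among feedback and target genes 3 of 14 rose and 0 fell, with a median of 0.05. The 3 were Fosl1 (1.02 ± 0.14), Cd44 (0.49 ± 0.07) and Myc (0.54 ± 0.09), which many other signals also control. Axin2, a feedback inhibitor widely used as a readout of beta-catenin signalling, was not called, at -0.15 ± 0.13 (limma adjusted p = 0.531). Its difference was 0.02 ± 0.13 in line A and -0.49 in the single pair of line B, and the product term was not called.

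**Figure D4:**
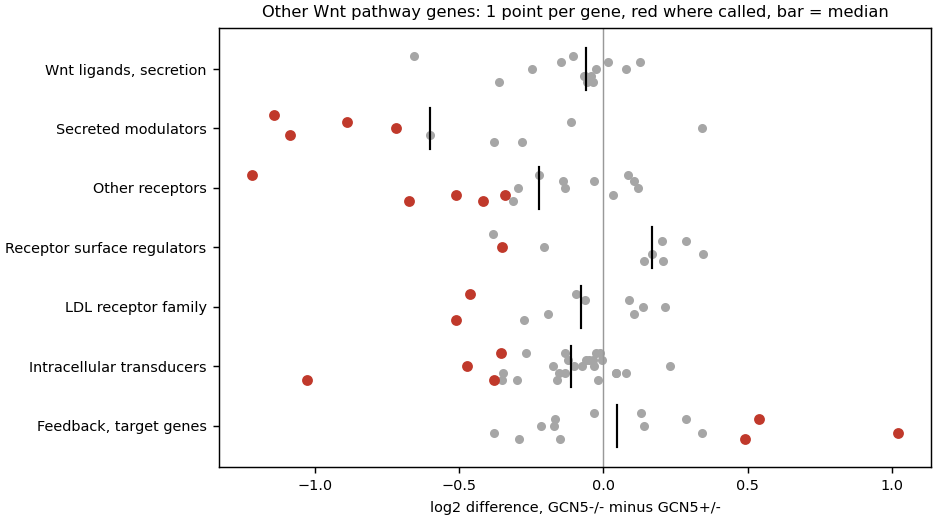
Log2 difference, GCN5-/- minus GCN5+/-, of other Wnt pathway genes by role, with 1 point per gene at its brightest probe set. Red points were called, grey points were not, and black bars are list medians. Secreted modulators have the lowest median (-0.60), and red points right of 0 are found only among the feedback and target genes.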

How the data were processed

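RNA of 6 samples was measured on Affymetrix arrays. The deposited values were log2 signals per probe set; the scale was read from the values, which ran from 3.13 to 15.2. The submitters' processing notes name MAS5 (6 samples) and Partek (1 sample), with no role or order; how the values were normalized or filtered is not given in the sources used here. The medians of the arrays ran between 7.41 and 7.46, so the arrays were on a similar scale; a scaling of that kind would remove changes shared by most genes. Depth does not apply to arrays, and their number limits the precision.

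Of 45101 probe sets, 64 controls were left out. Symbols came from the platform annotation (34945 probe sets with 1 symbol, 932 with several, 9160 unnamed here), updated through 34741 Entrez matches to RefSeq of GRCm38.p6. Probe sets with a mean signal at or above the 40th percentile (6.796) were tested in R 4.3.3 with limma 3.58.1 (lmFit, eBayes with trend): genotype with line as covariate over all 6 arrays, line from the same fit, and the product term in a second fit. Probe sets under the filter were read from a fit over all 45037. P-values were Benjamini-Hochberg adjusted over all tested probe sets. The fit was tested on simulated data. Named were every member probe set, Kat2a, Kat2b and up to 4 called genes per list by smallest p. The 3 genes most like 2 members in pattern (spread at least 0.5 of the member's) were named too. Fzd9, Fzd10, Axin2, Thy1, Krt19 and the called marker genes were named outside these rules, after their values were seen. The members and lists were chosen with earlier results of these data known.

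Replicate names pair arrays by line; nothing states that equal numbers within line A share a culture. Arrays of the same line are paired by the labels, and a fit with the 3 replicate names as blocks was run as an alternative. Deviations from group means correlated at 0.714 (A1), 0.727 (A2) and 0.846 (B), but they contain the line difference: mismatched line A arrays correlated at 0.509 and 0.443. With line removed, equal numbers gave 0.202 (A1) and 0.169 (A2), mismatched ones -0.465 and -0.557, and B is -1 by construction. No 2 arrays were copies.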

Additional observations from a re-analysis of the deposited data

Results flagged for a closer look

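At Fzd6 probe set 1417301_at, 1 of the 4 line A arrays stood apart from the others: GCN5-/- A2 read 9.72, against 9.53, 9.56 and 9.55. Its gap to the nearest of these took 0.82903 of the range of the 4, barely past the critical value of Dixon's test. Chance alone passes that test at a rate of 0.05, and 22 such groups were examined. The line difference at this probe set was 1.59 ± 0.10.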

How the results depend on the processing

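No called member result changed sign. Among results with no call, the sign changed in 13 of 203 refits for genotype, 7 of 178 for line and 7 of 154 for the product term: the genotype estimate of Fzd3 at 1434788_at ran between -0.35 and 0.13, and the line estimate of Fzd1 at 1437284_at between -0.87 and 0.15. For genotype, the 7 lower probe sets of 4 genes were the same 7 with the replicate block, and 7 probe sets of 4 genes with quantile normalization. They were 2 probe sets of 2 genes (Fzd1 and Fzd2) with cell line as a random block, 3 of 2 genes (Fzd1 and Fzd4) with line A duplicates averaged, and 0 of 0 genes with no line term, where 69 of all probe sets were called in place of 2299. Leaving out 1 array gave 2 to 7 lower probe sets and 1 to 4 genes. The fewest came without GCN5-/- A2, when only Fzd1 was called (4 without GCN5-/- A1, 5 without either line A array of GCN5+/- cells). Over 97 refits of the 7 called probe sets, 67 were past the threshold; Fzd7 kept its call in 5 of 14. With no line term the adjusted p of Fzd1 at 1437284_at was 0.169. For line, the 5 lower probe sets were 3 with no genotype term and 2 under a filter at the 60th percentile, which tested 14 member probe sets; 94 of 100 refits of the 8 called probe sets were past the threshold. The 1 line call that the replicate block added was Fzd4 at 1419301_at, and it ended none. For the product term, leaving out a line A array, an alternative chosen after seeing the data, gave 1 lower probe set of 1 gene (Fzd1) each time, on 1 residual degree of freedom. For the Wnt lists, counting any called probe set of a gene moved secreted modulators to 5 lower. The limit throughout is the 2 lines with 1 array each of line B per genotype.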

Other observations

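Several secreted Wnt modulators and several Wnt ligands differed between the lines, where 23.1% of all tested probe sets were called. Sfrp1, a secreted Frizzled-like inhibitor, averaged 8.82 log2 units in line B and 13.35 in line A, a difference of -4.53 ± 0.14 (SE; limma adjusted p = 9.92e-07). Rspo2 averaged 7.77 in line B and 11.34 in line A, a difference of -3.57 ± 0.10 (limma adjusted p = 4.1e-07). Wnt5a, a ligand of Frizzleds and Ror receptors, averaged 9.35 in line B and 8.24 in line A (1.11 ± 0.20, limma adjusted p = 0.00535). The ligand genes Wnt10b (1.97 ± 0.11), Wnt2 (-1.73 ± 0.27) and Wnt4 (-1.52 ± 0.11) were also called, with larger differences. Dkk2, which encodes a secreted Lrp6 ligand and was below the filter on mean signal, averaged 7.87 in line B and 5.26 in line A (2.62 ± 0.13, adjusted p = 5.2e-06 in the limma fit without the filter). That filter weighs the 4 line A arrays more than the 2 line B arrays, so no count of such genes is given. Sfrp1, Wnt5a, Wnt10b, Wnt2, Wnt4 and Dkk2 were named after their values were seen.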
